A study of Homo sapiens with 36 samples.

Results

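A375 is an established human melanoma line that carries a mutant BRAF kinase, and PLX4720 is an inhibitor of that kinase. The comparison described here asks what 6-thio-dG did to the transcriptome of A375 cells that also received PLX4720. It sets A375 cells given PLX4720 together with 6-thio-dG, called the combination, against A375 cells given PLX4720 only. By the library titles each of these groups holds 2 libraries, and treatment lasted 3 days. These 4 libraries come from a series of 36. All 11828 gene rows of the authors' deposited table were used for this comparison. The same table also holds A375 cells given 6-thio-dG alone against a reference arm (read here as the DMSO control of 2 libraries), and HCC827 cells, an EGFR-mutant lung adenocarcinoma line, given osimertinib with 6-thio-dG against osimertinib. Both are used below only to show where the A375 combination differed.

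PLX4720 was present on both sides of the comparison, so no value below is an effect of PLX4720 itself. The header names the second arm TKI1, which may mean the PLX4720 group or only its first library, and the header does not say which. A375 is 1 line, nothing in the labels says that the libraries of a group came from separate cultures, and the p-values may therefore measure technical spread. For each gene the table lists a log2 fold change with raw and adjusted p-values, and no value per library, so neither levels nor the spread between libraries can be shown. A gene rose or fell where the authors' adjusted p was under 0.05. The errors written after ± are standard errors implied by each gene's fold change and p-value, and they are not a spread measured between libraries.

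RAF kinases pass growth signals through MEK to ERK, which drives immediate early transcription factors and the cell cycle in BRAF-mutant melanoma. 6-thio-dG is a deoxyguanosine analogue that cells convert to a nucleotide and insert into DNA, and telomerase is known to add it to chromosome ends. Cells answer shortage of amino acids, damaged proteins and DNA damage through separate regulators, among them the transcription factors ATF4, HSF1 and p53. Interferon signalling through STAT2 and IRF9 sets the level of antiviral genes and of antigen presentation.

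Adding 6-thio-dG to PLX4720 moved a large part of the transcriptome. Of 11828 genes, 7153 were called in the authors' deposited table, which is 60.5% of them. Of these, 3685 rose (31.2% of the table) and 3468 fell (29.3%). Changes of at least 2-fold were called for 3202 genes (27.1%), of which 1400 rose and 1802 fell. Among called changes of at least 8-fold, 114 rose and 233 fell, so 67.1% of the strongest changes were falls. The median log2 fold change of all genes was 0.06, and the median implied standard error was 0.173. With so high a background, a list in which 60.5% of members were called is at the level of all genes, and each count below is to be read against that share and against 31.2% and 29.3% for each direction. The lists share some genes.

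The labelled cell type could be checked only in part, because fold changes carry no levels. Of 9 melanocyte lineage markers, 3 were in the table. MITF, the master regulator of the melanocyte lineage, fell by 1.95 ± 0.152 on the log2 scale in the authors' deposited table, and ERBB3, a neuregulin receptor of melanocytic cells, fell by 4.50. PMEL, a melanosome protein, had a deposited log2 fold change of -0.36 ± 0.623 and was not called. Some markers of other cell types were called as well, and over all genes 31.2% rose and 29.3% fell. Of 7 epithelial markers, all in the table, 3 rose and none fell, with a median log2 fold change of 1.00 and a range from 0.42 to 2.12. The keratin KRT18 was the highest, at 2.12 ± 0.145 in the authors' deposited table. Of 7 fibroblast markers 1 was in the table, COL1A1, which fell by 3.61. Of 5 leukocyte markers 1 was, CD68, which rose by 1.33, and of 4 endothelial markers 1 was, CDH5, which was not called. Whether these marker changes have a part in any result below was not tested.

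The largest falls and rises were mostly genes with wide errors. ENSG00000273259 had the lowest called log2 fold change of the authors' deposited table, -11.59 ± 2.43. It was followed by FAM20A, a pseudokinase that supports secretory pathway phosphorylation, at -10.39 ± 1.52, and by PADI2, an enzyme that converts protein arginine to citrulline, at -10.23 in the authors' deposited table. ALDH1A1, a retinaldehyde dehydrogenase often used to mark drug-tolerant cells, stood at -8.74 ± 1.68 there. At the other end, CYP4F3, a cytochrome P450 that oxidises leukotrienes, had a deposited log2 fold change of 11.04 ± 1.5. PADI1, a further arginine deiminase, had 8.41 in the authors' deposited table. ZNF114, a zinc finger protein, was more precise than the other large rises at 8.08 ± 0.449 (the authors' deposited adjusted p = 1.5e-70). Other genes among the 12 largest each way ranged from -9.72 to -6.94 for the falls ENSG00000284946, FREM1, EPSTI1, NRTN, PAOX, ACE, GPER1 and LARGE2 in the authors' deposited table. They ranged from 7.80 to 10.40 for the rises ENSG00000188223, ANKRD2, PLD5, LDLRAD1, VSIG1, ARL14, FBP1 and MFNG.

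For 16 genes the p-value is listed as 0, below what the software holds, and these were strong changes for which no standard error can be implied. Only their fold changes are given. NFATC2, a calcium-responsive transcription factor, fell by 6.94 in the authors' deposited table, and OLFML2A, an extracellular matrix protein, fell by 6.56. TNC, the matrix glycoprotein tenascin C, stood at -6.13, TCN1, a vitamin B12 carrier, at -5.67 and SERPINA3, an acute phase protease inhibitor, at -5.50 in the same deposited table. Other falls of this kind were NREP (-4.83), DKK3 (-4.77), LOXL3 (-4.63), HLA-DRA (-4.62), ERBB3 (-4.50), CAPS (-4.42), CCN3 (-4.19) and LAMB1 (-4.07), as deposited log2 fold changes. The 3 rises were NUPR1, a stress-induced chromatin protein, at 4.57, SLAMF7, a cell surface receptor of lymphocytes, at 6.31, and GDF15, a secreted stress cytokine, at 6.79 in the authors' deposited table.

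**Figure D1:**
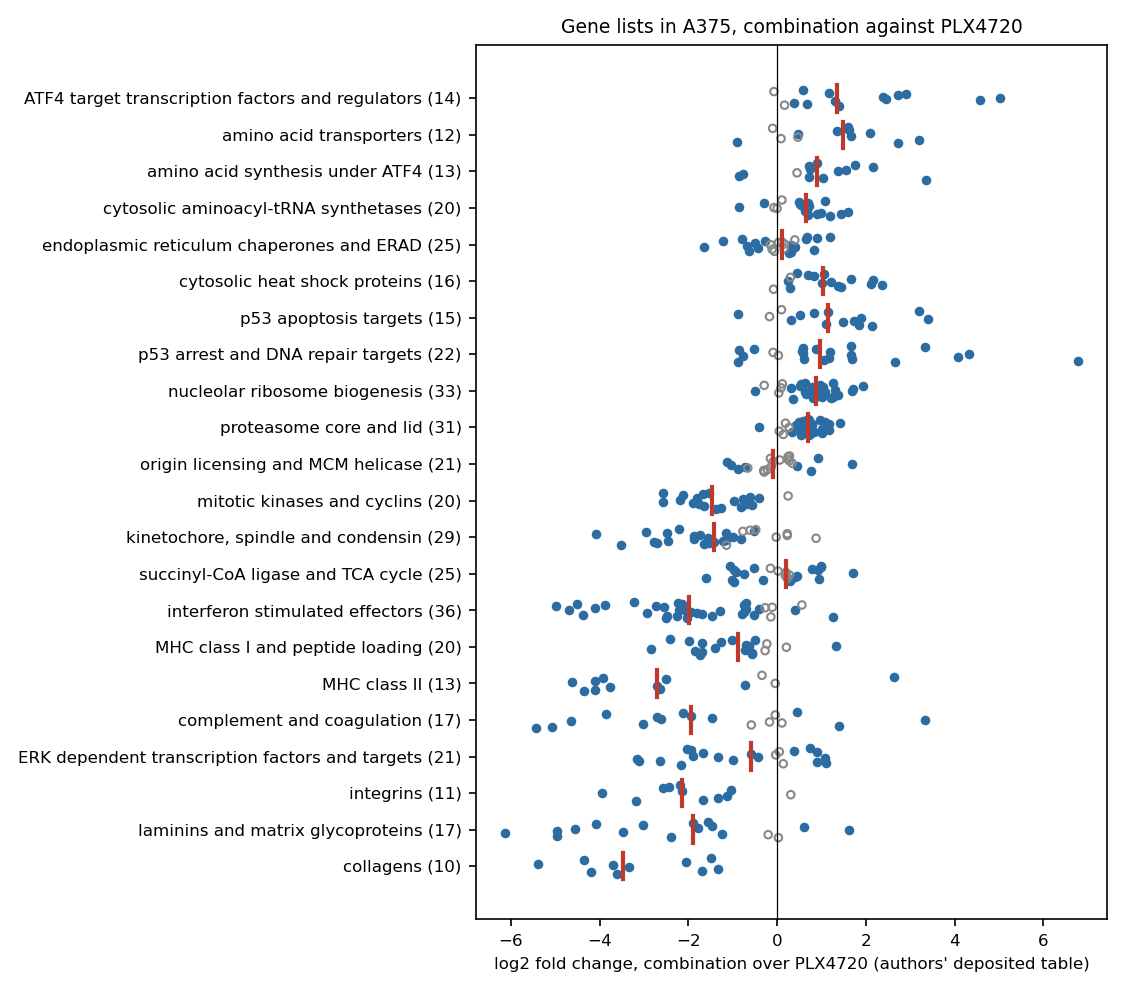
Members of 22 gene lists in the A375 combination against PLX4720. Each point is 1 gene at its deposited log2 fold change (horizontal axis), filled where the adjusted p was under 0.05 and open otherwise, red bars are list medians, and the number of measured members follows each name; amino acid, heat shock, nucleolar and proteasome genes lie mostly to the right of 0 and interferon, antigen presentation and matrix genes to the left.

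Most genes of the amino acid stress response rose. ATF4 is a transcription factor whose translation increases when the initiation factor eIF2 is phosphorylated, and its targets include regulators, enzymes that make amino acids, transporters that import them and the enzymes that load them on tRNA. Of 14 measured regulators 12 rose and none fell, with a median log2 fold change of 1.35. ATF4 itself stood at 1.39 ± 0.111, DDIT3 (CHOP, a pro-death partner of ATF4) at 5.03 ± 0.166 and TRIB3, a pseudokinase that restrains ATF4, at 2.72 ± 0.145 in the authors' deposited table. CEBPG, a dimer partner of ATF4, was at 2.38 ± 0.156 and CHAC1, which degrades glutathione, at 2.46 ± 0.215 there. ATF3, a stress-induced repressor, had a deposited log2 fold change of 2.91 ± 0.134. Among 12 genes of eIF2, its kinases and its phosphatases, 7 rose and 2 fell. The rises included the eIF2 alpha subunit EIF2S1 (1.33 ± 0.104) and the phosphatase adaptor PPP1R15A (1.30 ± 0.103) in the authors' deposited table. EIF2AK4, the kinase that senses uncharged tRNA, fell by 1.09 ± 0.105.

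Enzymes of amino acid synthesis rose in 10 of 13 cases and fell in 2, with a median of 0.90. ASNS, which makes asparagine, had the highest deposited log2 fold change of them, 3.35 ± 0.146. MTHFD2, a mitochondrial folate enzyme, was at 2.16 ± 0.109, PHGDH, the entry enzyme of serine synthesis, at 1.55 ± 0.157 and CTH, which makes cysteine, at 1.76 ± 0.226 in the authors' deposited table. The falls included the proline enzyme ALDH18A1 (-0.85 ± 0.123), while PYCR1, a later enzyme of proline synthesis, stood at 0.72 ± 0.152, as deposited. Amino acid transporters rose in 8 of 12 cases and fell in 1, with a median of 1.49. Both chains of the large neutral amino acid exchanger rose, SLC3A2 at 3.20 ± 0.144 and SLC7A5 at 2.10 ± 0.136 in the authors' deposited table. The cystine importer SLC7A11 was at 2.73 ± 0.341 and the cationic transporter SLC7A1 at 1.63 ± 0.135 there, whereas the neutral transporter SLC1A4 fell by 0.90 ± 0.175. Of 20 cytosolic aminoacyl-tRNA synthetases 15 rose and 2 fell (median 0.66), led by SARS1 at 1.59 ± 0.126 and GARS1 at 1.43 ± 0.118 in the authors' deposited table. QARS1, the glutamine enzyme, fell by 0.86 ± 0.127. Of 17 mitochondrial synthetases 9 rose and 2 fell (median 0.46).

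Several of these genes carry the C/EBP-ATF response element near their start. The element was searched as TGATGNAA on both strands of RefSeq promoter windows of GRCh38.p14, each from 250 bases before to 50 bases after a transcription start. It occurred in 18 of 75 windows (24.0%) of the regulator, synthesis, transporter and cytosolic synthetase lists, for which 48 genes had a window. The share was 1.96% over the 14014 windows of genes in the table and 3.62% over all 35116 windows. Among all genes that rose it was 2.35% and among all that fell 1.84%. These lists hold genes taken as ATF4 targets, so a high share was likely from the outset. Members were counted whether or not they rose, and whether the element had a part in the rises was not tested. The windows below show 60 bases around the match in 5 of the genes just described that hold one, 5′ to 3′ on the gene's own strand, with the matched letters in capitals; a match is given as letters only and not as a bound site.
ASNS, chr7:97872443-97872502, minus strand: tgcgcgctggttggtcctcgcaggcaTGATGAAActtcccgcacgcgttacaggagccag
CHAC1, chr15:40953236-40953295, plus strand: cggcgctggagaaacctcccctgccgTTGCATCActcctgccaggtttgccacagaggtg
ATF3, chr1:212565190-212565249, plus strand: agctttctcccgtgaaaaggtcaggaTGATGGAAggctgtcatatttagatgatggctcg
CEBPG, chr19:33374045-33374104, plus strand: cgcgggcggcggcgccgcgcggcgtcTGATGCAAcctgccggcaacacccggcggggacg
SLC3A2, chr11:62881689-62881748, plus strand: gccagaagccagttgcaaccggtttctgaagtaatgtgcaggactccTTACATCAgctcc
With -1 as the base just before the start, the first letter of the match lies at -68 in ASNS, -209 in CHAC1, -191 in ATF3 and -42 in CEBPG, and at base 38 from the start in SLC3A2. In CHAC1 and SLC3A2 it lies on the opposite strand and is printed as its reverse complement. ASNS, ATF3 and CEBPG each have a further window with no match, and SLC3A2 has others. DDIT3, TRIB3, SARS1 and MTHFD2, which also rose, held no match in any window searched.

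Folding capacity moved unequally between compartments. Of 16 cytosolic heat shock genes 14 rose and none fell (median 1.03). HSPA8, the constitutive HSP70, stood at 2.12 ± 0.109, HSP90AA1, the inducible HSP90, at 1.66 ± 0.134 and HSPB8, a small heat shock protein, at 2.36 ± 0.157 in the authors' deposited table. HSPA1A and HSPA1B, near-identical copies whose reads could be split by the counting, stood at 1.21 and 1.05 there. Of 25 mitochondrial chaperone, protease and import genes 18 rose and 1 fell (median 0.61), with the chaperonin HSPD1 at 1.28 ± 0.0954 and its partner HSPE1 at 1.44 ± 0.126 as deposited; the fall was the protease SPG7 at -1.51 ± 0.121. In the endoplasmic reticulum 9 of 25 chaperone and degradation genes rose and 8 fell (median 0.11). There HERPUD1, a degradation factor, was at 1.19 ± 0.119 and the transcription factor XBP1 at 0.90 ± 0.129, while the chaperone HYOU1 stood at -0.79 ± 0.113 and CRELD2 at -1.64 ± 0.162 in the authors' deposited table.

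Redox and iron genes rose more often than they fell. Of 22 genes of the NRF2 and glutathione list 13 rose and 3 fell (median 0.38). Thioredoxin reductase TXNRD1 was at 2.08 ± 0.11, sulfiredoxin SRXN1 at 2.17 ± 0.105 and haem oxygenase HMOX1 at 2.66 ± 0.153 in the authors' deposited table. GPX4, which reduces lipid peroxides, fell by 0.54 ± 0.116. Of 10 iron genes 6 rose and 2 fell (median 0.94); the ferritin heavy chain FTH1 stood at 2.87 ± 0.11 and the transferrin receptor TFRC at 1.73 ± 0.104 as deposited. Of 6 metallothionein and zinc genes 2 rose and none fell, with MT2A at 1.94 ± 0.128 in the authors' deposited table.

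Targets of p53, the transcription factor of the DNA damage response, rose in both of its arms. Of 22 arrest and repair targets 16 rose and 4 fell (median 0.97). Besides GDF15, GADD45A was at 4.07 ± 0.134, the 14-3-3 protein SFN at 4.33 ± 0.44, the kinase PLK3 at 3.33 ± 0.183 and the CDK inhibitor CDKN1A at 2.65 ± 0.13 in the authors' deposited table. Of 15 apoptosis targets 12 rose and 1 fell (median 1.14). The death receptors FAS (3.40 ± 0.263) and TNFRSF10A (3.21 ± 0.187) and the BH3-only gene BBC3 (2.15 ± 0.182) were among the rises in the authors' deposited table. Whether p53 or another regulator had a part in the rises of these targets was not tested. Across 15 BCL2 family genes 7 rose and 4 fell. Killers and protectors were on both sides, since HRK, a BH3-only gene, stood at 2.92 ± 0.485 and BMF, another, at -2.75 ± 0.157, while the protector BCL2L1 was at 1.35 ± 0.134, MCL1 at -0.71 ± 0.0971 and BCL2A1 at -2.91 ± 0.589 in the authors' deposited table.

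Mitotic genes fell, and genes of DNA replication were called in both directions. Of 20 mitotic kinases and cyclins 19 fell and none rose (median -1.46). PLK1, a kinase of mitotic entry, stood at -2.58 ± 0.239, FOXM1, the transcription factor of the mitotic programme, at -2.58 ± 0.278, and cyclin CCNA2 at -1.90 ± 0.313 in the authors' deposited table. Of 29 kinetochore, spindle and condensin genes 21 fell and none rose (median -1.43), with the kinesin KIF20A at -4.07 ± 0.293, MKI67 at -3.51 ± 0.189 and topoisomerase TOP2A at -2.96 ± 0.196 as deposited. By contrast 4 of 21 origin licensing genes rose and 4 fell (median -0.09), and 6 of 27 replication fork and nucleotide supply genes rose and 7 fell (median 0.11). The shares called in these lists were 38.1% and 48.1%, against 60.5% of all genes. The sliding clamp PCNA rose, at 1.65 ± 0.119, while the ribonucleotide reductase subunit RRM2 stood at -2.16 ± 0.237 and thymidine kinase TK1 at -1.94 ± 0.257 in the authors' deposited table. Of 14 G1/S genes 4 rose and 4 fell. The CDK inhibitors were split, since CDKN1A and CDKN2A (1.13 ± 0.381) rose while CDKN2C (-3.26 ± 0.126), CDKN1C (-3.21 ± 0.346) and CDKN1B (-1.64 ± 0.139) fell in the authors' deposited table. Of 18 E2F and RB family genes 4 rose and 8 fell, with MYBL2 at -2.12 ± 0.219 and the repressor E2F7 at 1.99 ± 0.215 as deposited.

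The letters TTTGAA, those of the cell cycle genes homology region that the MuvB complex is known to bind, occurred on either strand in 32 of 52 RefSeq windows (61.5%) of the 40 mitotic and kinetochore genes with a window. The share was 10.2% over the windows of all genes in the table and 15.2% over all 35116 windows. The pentamer CCAAT occurred in 69.2% of the mitotic and kinetochore windows, against 34.8% of the windows of all genes in the table. Among all genes that rose the share with TTTGAA was 10.6%, and among all that fell 10.0%. The lists hold cell cycle genes, after which the element is named, so a high share was likely from the outset. Members were counted whether or not they fell, and whether these letters had a part in the falls was not tested. The 60-base windows of 3 mitotic genes that fell show the match in capitals, 5′ to 3′ on the gene's strand.
PLK1, chr16:23678834-23678893, plus strand: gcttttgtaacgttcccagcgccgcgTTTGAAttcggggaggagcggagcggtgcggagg
CCNB2, chr15:59105091-59105150, plus strand: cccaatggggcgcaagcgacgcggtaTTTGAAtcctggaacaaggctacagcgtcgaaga
CDC25C, chr5:138331828-138331887, minus strand: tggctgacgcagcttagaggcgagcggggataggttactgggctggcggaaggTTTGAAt
The match begins at base -29 in both PLK1 and CCNB2. In CDC25C the printed match begins at base 44 from the start, and an overlapping window with another start places the same match at -30. The windows were chosen because they hold a match. Further windows of CDC25C and the window of the cyclin CCNB1 hold none. CCNB2 stood at -1.27 ± 0.316 and CDC25C, the phosphatase that activates CDK1, at -1.81 ± 0.577 in the authors' deposited table.

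In most lists of repair and drug handling the share called was below the 60.5% of all genes. It was 42.3% for homologous recombination and Fanconi genes, 37.5% for mismatch repair, 52.2% for thiopurine handling and 41.7% for telomere-binding genes. In the telomerase list it was 83.3%. Of 26 genes for homologous recombination or the Fanconi pathway, 4 rose and 7 fell; the damage kinase ATM fell by 2.50 ± 0.276 and the helicase FANCM stood at 1.83 ± 0.731 in the authors' deposited table. Of 8 mismatch repair genes, which recognise thioguanine pairs in DNA, 2 rose and 1 fell, the rises including PMS1 at 0.81 ± 0.349 in the authors' deposited table, and the fall was MSH3. Of 23 genes that handle thiopurines and nucleosides 8 rose and 4 fell (median 0.17). PNP, which splits purine nucleosides into base and sugar, stood at 2.26 ± 0.136 and HPRT1, which returns the base to a nucleotide, at 0.89 ± 0.144 in the authors' deposited table. XDH, xanthine dehydrogenase, was at 4.76 ± 0.576 and the nucleotidase NT5C2 at 1.14 ± 0.118, while TPMT, which methylates thiopurines, fell by 0.87 ± 0.189 in the authors' deposited table. In the telomerase complex and its assembly 10 of 12 genes rose and none fell (median 0.58), including GAR1 at 1.26 ± 0.134 and dyskerin DKC1 at 0.78 ± 0.106 as deposited; many of them also serve nucleolar RNA in general. The catalytic subunit TERT was not analysed here. Of 12 telomere-binding genes 3 rose and 2 fell, with POT1, which caps the single strand, at 1.12 ± 0.192 and the chromatin remodeller ATRX at -1.44 ± 0.334 in the authors' deposited table.

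Genes for making and destroying proteins rose. Of 33 nucleolar ribosome biogenesis genes 28 rose and 1 fell (median 0.87), with LYAR at 1.93 ± 0.144, NOP16 at 1.70 ± 0.125 and nucleophosmin NPM1 at 1.00 ± 0.0921 in the authors' deposited table. Of 31 subunits of the proteasome core and lid 26 rose and 1 fell (median 0.69). The deubiquitinating lid subunit PSMD14 had the highest value, 1.41 ± 0.115, and PSMD1 was the one that fell, at -0.40 ± 0.127 in the authors' deposited table. Of 25 translation factors 16 rose and 5 fell (median 0.51), the falls including the elongation factor kinase EEF2K at -1.24 ± 0.143 as deposited. Of 45 cytosolic ribosomal proteins 24 rose and 3 fell, but none reached 2-fold and their median was 0.25. Of 34 splicing factors 14 rose and 8 fell (median 0.04).

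In metabolism the succinyl-CoA ligase subunits moved apart. SUCLG2, the GTP-forming subunit, fell by 0.96 ± 0.152, its alpha partner SUCLG1 rose by 0.41 ± 0.129, and the ATP-forming SUCLA2 stood at 0.20 ± 0.168 and was not called in the authors' deposited table. With the trends on transcript properties described at the end removed, SUCLG1 stood at -0.02 and was no longer called, while SUCLG2 stayed a fall. The ligase and TCA cycle list of 25 genes held 9 rises and 9 falls (median 0.20). The cytosolic isocitrate dehydrogenase IDH1 was at 1.71 ± 0.108 and the mitochondrial IDH2 at -1.60 ± 0.174 in the authors' deposited table. Of 12 pyruvate dehydrogenase genes 7 rose and 2 fell (median 0.51), but with the same trends removed 3 rose and 2 fell (median 0.09). Among them were the inhibitory kinases PDK1 at 1.23 ± 0.186 and PDK2 at -1.25 ± 0.158 as deposited. Glycolysis (9 of 22 rose, 4 fell), hypoxia response (8 of 13 rose, 4 fell), fatty acid synthesis (6 of 14 rose, 5 fell) and the folate cycle (7 of 15 rose, 3 fell) held members in both directions. HK2, a hexokinase, was at 1.28 ± 0.12 and ADM, the hormone adrenomedullin, at 2.26 ± 0.183 in the authors' deposited table. SHMT1, the cytosolic serine hydroxymethyltransferase, fell by 2.33 ± 0.136, while SHMT2, its mitochondrial counterpart, stood at 0.71 ± 0.142 as deposited.

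Of 25 cholesterol genes 14 rose and 9 fell (median 0.58). The demethylase CYP51A1 was at 1.61 ± 0.139 and squalene epoxidase SQLE at 1.28 ± 0.161 in the authors' deposited table. The falls included the sterol exporter ABCA1 (-1.65 ± 0.362) and the ubiquitin ligase MYLIP (-2.12 ± 0.2), as deposited. The list of de novo purine and pyrimidine synthesis also holds UCK2, a uridine salvage kinase. Of its 18 genes 10 rose and none fell (median 0.32). UCK2 was the highest, at 1.20 ± 0.121, and PAICS, of the purine pathway, stood at 1.02 ± 0.102 in the authors' deposited table. After median centring 9 of these genes rose and 2 fell, and with the trends removed 6 rose and 2 fell (median 0.19). Nuclear complex I was represented by 34 genes, of which 20 rose and 3 fell (median 0.44). With the trends removed 13 rose and 5 fell (median 0.21). The assembly factor NDUFAF4 had the highest deposited value, 1.89 ± 0.192. The mitochondrially encoded transcripts went the other way, with 10 of 13 falling and none rising (median -0.66), the lowest being MT-CO3 at -1.02 ± 0.121 in the authors' deposited table; MT-ATP6, MT-ATP8 and MT-ND6 were not called. Of 31 lysosome genes 15 fell and 8 rose (median -0.28), with the galactosidase GLB1 at -1.85 ± 0.164, cathepsin CTSS at -2.71 ± 0.21 and cathepsin CTSL at 1.06 ± 0.109 as deposited. Of 19 autophagy genes 8 rose and 3 fell, including the receptor SQSTM1 at 2.74 ± 0.122 and the starting kinase ULK1 at -1.82 ± 0.137 in the authors' deposited table.

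Most interferon genes fell. Of 36 interferon stimulated effectors 30 fell and 2 rose (median -1.98), against 29.3% of all genes that fell. IFITM1, which blocks viral entry, stood at -4.98 ± 0.141, BST2, which tethers budding virus, at -4.51 ± 0.162, and the GTPase GBP2 at -4.10 ± 0.133 in the authors' deposited table. IFIT1, which binds foreign RNA, was at -3.23 ± 0.171, the dynamin-like MX1 at -2.72 ± 0.161 and the RNA-activated OAS2 at -2.94 ± 0.169 there. The rises were the ISG15 ligase HERC5, at 1.25 ± 0.284, and the exonuclease ISG20, at 0.41 ± 0.157 in the authors' deposited table. Of 17 signalling components 10 fell and 1 rose. Factors that carry the interferon signal to DNA were among the falls, with STAT2 at -1.33 ± 0.118, IRF9 at -1.58 ± 0.308 and IRF7 at -2.77 ± 0.23 in the authors' deposited table. The receptor chain IFNGR1 rose, at 0.92 ± 0.223. Of 10 nucleic acid sensing genes 7 fell and 2 rose, the rises being the receptor TLR3 (1.23 ± 0.217) and the kinase TBK1 (0.80 ± 0.226), and the falls including the RNA sensor IFIH1 (-1.12 ± 0.273) and STING1 (-0.80 ± 0.147) as deposited.

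The interferon stimulated response element was searched as GAAA, any 2 bases and GAAA again, on both strands. It occurred in 27 of 37 RefSeq windows (73.0%) of the 29 interferon stimulated effectors that had one, against 2.78% of the windows of all genes in the table. Among all genes it was in 2.68% of the windows of risen and 3.32% of those of fallen genes. The effector list holds genes taken to respond to interferon, so a high share was likely from the outset. Its members were counted whether or not they fell, and whether the element had a part in the falls was not tested. Windows of 4 effectors follow, 5′ to 3′ on the gene's strand with the matches in capitals. They were chosen because both copies fall within the 60 bases printed around the first match.
IFIT1, chr10:89392481-89392540, plus strand: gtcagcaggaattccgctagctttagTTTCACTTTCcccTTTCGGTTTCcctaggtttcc
BST2, chr19:17405727-17405786, minus strand: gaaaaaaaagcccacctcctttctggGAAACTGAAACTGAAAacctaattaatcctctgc
IFI27, chr14:94110602-94110661, plus strand: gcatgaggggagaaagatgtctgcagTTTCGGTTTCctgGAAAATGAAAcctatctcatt
ISG15, chr1:1013358-1013417, plus strand: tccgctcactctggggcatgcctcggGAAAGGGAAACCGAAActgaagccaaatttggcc
Each window holds 2 matches, which overlap each other in BST2 and ISG15 and point away from each other, on opposite strands, in IFI27. Other effectors differed. Copies lay farther apart in IFITM1, IFIT3 and IFI44L, MX1 had at most 1 copy per window, and XAF1 had none in the windows searched. ISG15, the ubiquitin-like modifier, had a log2 fold change of -1.80 ± 0.164 and IFI27, a mitochondrial interferon protein, of -4.37 ± 0.442 in the authors' deposited table.

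Antigen presentation fell with these genes. MHC class I and peptide loading held 20 genes, of which 16 fell and 1 rose (median -0.87), among them HLA-B at -2.85 ± 0.11, the light chain B2M at -1.27 ± 0.091, the loading factor TAPBP at -1.98 ± 0.134 and the immunoproteasome subunit PSMB10 at -2.42 ± 0.179 in the authors' deposited table. HLA genes differ between people and are near-identical to each other, so their counts are uncertain. Of 13 MHC class II genes 10 fell and 1 rose (median -2.71); the class II activator CIITA stood at -4.34 ± 0.158 and the invariant chain CD74 at -3.93 ± 0.126 as deposited. HLA-DRB1 and HLA-DRB5, near-identical copies, were both at -4.10 in the authors' deposited table. The one class II gene that rose was IFI30, a lysosomal thiol reductase, at 2.63 ± 0.143.

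Of 12 checkpoint and NKG2D ligand genes 5 rose and 3 fell. The rises were the costimulatory ligand TNFSF9 (3.41 ± 0.168), the TIGIT ligand PVR (2.36 ± 0.136), CD274, which encodes PD-L1 (1.98 ± 0.344), and the NKG2D ligands MICA (1.90 ± 0.177) and MICB (1.55 ± 0.183) in the authors' deposited table. Secreted immune factors fell more often than they rose. Of 17 complement and coagulation genes 10 fell and 3 rose (median -1.95), with C3 at -5.43 ± 0.145, the complement protease C1R at -4.65 ± 0.186 and factor I, CFI, at -5.07 ± 0.15 in the authors' deposited table. The complement inhibitor CD55 rose instead, at 3.33 ± 0.121, while CD59, a further inhibitor, fell by 2.12 ± 0.0951. Of 15 chemokines and cytokines 9 fell and 1 rose (median -1.21); CCL2, which attracts monocytes, stood at -4.73 ± 0.155, CXCL1, which attracts neutrophils, at -3.32 ± 0.211, and the one rise was IL6 at 1.21 ± 0.44 as deposited. Of 19 NF-kB genes 3 rose and 6 fell (median -0.10), with the inhibitor NFKBIA at -1.24 ± 0.136 and BCL3 at -2.52 ± 0.2 in the authors' deposited table.

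Downstream of ERK, 12 of 21 dependent transcription factors and targets fell and 6 rose (median -0.59). EGR1, an immediate early factor, stood at -3.16 ± 0.161, the ETS factor ETV1 at -3.11 ± 0.144, PHLDA1 at -2.64 ± 0.0971 and JUNB at -1.67 ± 0.144 in the authors' deposited table. Some members rose, among them MYC (0.91 ± 0.197) and FOSL1, an AP-1 subunit (0.90 ± 0.161). Of 14 ERK feedback genes 3 rose and 5 fell: the inhibitor SPRY2 was at -1.86 ± 0.128 and the ERK phosphatase DUSP6 at -1.02 ± 0.173, while DUSP5, its nuclear relative, was at 1.79 ± 0.183 as deposited. Of 22 core RAS, RAF, MEK, ERK and PI3K genes 5 rose and 10 fell, including AKT1 at -1.40 ± 0.128 and the PI3K regulatory subunit PIK3R1 at -1.87 ± 0.177 in the authors' deposited table.

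Receptors and their ligands moved differently. Of 17 receptor tyrosine kinases 9 fell and 2 rose (median -0.65), the falls including the collagen receptor DDR1 (-2.47 ± 0.118) and ERBB2 (-1.69 ± 0.129), and the rises being EPHA2 (0.74 ± 0.128) and MET (0.36 ± 0.142) in the authors' deposited table. Of 18 ligands and sheddases 8 rose and 5 fell (median 0.22). AREG, an EGFR ligand, stood at 5.25 ± 0.421, PDGFA, a platelet-derived growth factor, at 3.19 ± 0.336, NRG1, the ligand of ERBB3, at 2.73 ± 0.2 and KITLG at 2.55 ± 0.378 in the authors' deposited table. BTC, another EGFR ligand, fell by 1.91 ± 0.651. Of 21 TGF-beta family genes 6 rose and 9 fell, with the receptor TGFBR2 at -2.68 ± 0.105 and the latent carrier LTBP1 at -3.89 ± 0.245 as deposited. Of 13 Wnt and Notch genes 1 rose and 6 fell; the Wnt antagonist DKK1 rose, at 3.73 ± 0.114, whereas the related DKK3 fell by 4.77 in the authors' deposited table. Of 19 YAP and TEAD genes 6 rose and 6 fell, the reporter target ANKRD1 at 6.36 ± 0.204 and the coactivator WWTR1 at -3.10 ± 0.128 as deposited.

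Genes of the extracellular matrix and of its receptors mostly fell. All 10 measured collagens fell (median -3.47; 10 of 19 listed collagens were in the table), from COL18A1 at -5.38 ± 0.205 to COL27A1 at -1.33 ± 0.204 in the authors' deposited table. Of 17 laminins and matrix glycoproteins 13 fell and 2 rose (median -1.89), including LAMA5 at -4.96 ± 0.14, TGFBI at -4.56 ± 0.13 and fibronectin FN1 at -1.89 ± 0.139 as deposited. Of 11 matrix remodelling genes 9 fell and 1 rose, and the membrane protease MMP15 stood at -3.78 ± 0.137 in the authors' deposited table. Of 11 integrins, the cell surface receptors for this matrix, 10 fell and none rose (median -2.14), with ITGB4 at -3.94 ± 0.148, ITGA2 at -3.18 ± 0.136 and ITGB1, the shared beta chain, at -1.34 ± 0.149 in the authors' deposited table. The actin (5 of 23 rose, 8 fell) and tubulin lists (7 of 17 rose, 3 fell) were mixed, with TUBA1A at -2.24 ± 0.121 and TUBA1C at 1.26 ± 0.138 as deposited.

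Markers of melanoma cell states differed by list. Of 7 lineage genes 2 fell and none rose, so 28.6% were called against 60.5% of all genes. In the dedifferentiated and neural crest list 6 of 10 genes fell and 1 rose (median -1.33), with the factors SOX2 at -4.89 ± 0.199 and SNAI2 at -3.83 ± 0.452 in the authors' deposited table; NRG1 was the rise. AXL, a receptor of that state, had a deposited log2 fold change of -0.04 ± 0.149 and EGFR of 0.54 ± 0.322, and neither was called. Of 12 genes tied to drug tolerance 2 rose and 6 fell, and apart from ALDH1A1 each of these changed by less than 2-fold. Of 11 histone genes 9 fell and none rose (median -1.64), although poly(A) selection captures most of their transcripts poorly. H2BC12 stood at -2.24 ± 0.148 in the authors' deposited table. Of 30 chromatin modifiers 6 rose and 16 fell, with the DNA methyltransferase DNMT3A at -1.70 ± 0.194, and of 14 lamina and HMG genes 6 rose and 5 fell, with HMGA2 at -2.59 ± 0.117 as deposited. The wider epithelial list (5 of 13 rose, 2 fell) included rises of KRT18 and KRT7 (1.72 ± 0.367) and a fall of CLDN1 (-1.69 ± 0.284) in the authors' deposited table.

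The change brought by 6-thio-dG in the presence of PLX4720 was then set against that in its absence. Both comparisons were read as sharing no libraries. The difference is the log2 fold change of the combination over PLX4720 minus that of 6-thio-dG alone over its reference, tested for each gene with a two-sided z test on the implied standard errors and adjusted by Benjamini-Hochberg over 11805 genes. It was called for 6205 genes (52.6%), higher for 3360 (28.5%) and lower for 2845 (24.1%). The 16 genes whose p-value is listed as 0 in the combination, strong changes such as GDF15 and TNC, could not be tested. Neither could genes without an implied standard error in the comparison set against it, so counts of tested members can leave out strong changes. For 6-thio-dG alone the authors' deposited table called 65.0% of genes, 31.3% as rises and 33.7% as falls. A total of 1814 genes rose in both comparisons, which is 49.2% of the genes that rose in the combination and 48.9% of those that rose without PLX4720. Of the genes that fell, 1995 did so in both (57.5% and 50.1%). Opposite calls were also common, since 674 genes rose with PLX4720 and fell without it, and 400 fell with PLX4720 and rose without it.

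Many genes of the protein supply had fold changes of opposite sign with and without PLX4720. Of 33 nucleolar genes 22 fell and 4 rose under 6-thio-dG alone (median -0.52), and 29 had a higher value in the combination. Of 31 proteasome genes 14 fell and none rose alone (median -0.24), and 30 were higher in the combination. Amino acid synthesis genes fell in 10 of 13 cases alone (median -0.63), and 12 were higher in the combination. The ATF4 regulators did not share that sign, since 9 of 14 rose and 3 fell alone (median 0.73); of 12 tested, 8 were higher and 2 lower in the combination. ASNS stood at -0.61 ± 0.114 alone in the authors' deposited table, a difference of 3.96 ± 0.185 (adjusted p = 1.3e-97), and PHGDH at -1.77 ± 0.128, a difference of 3.33 ± 0.203 (adjusted p = 1.8e-57). Cytosolic tRNA synthetases were higher in the combination in 18 of 20 cases, telomerase assembly genes in 12 of 12, splicing factors in 31 of 34 and genes of purine and pyrimidine synthesis in 15 of 18. For p53 apoptosis targets the median was 1.14 with PLX4720 and 1.11 without, and 6 of 15 were called as different (5 higher and 1 lower). For p53 arrest and repair targets the median was 0.97 with PLX4720 and 1.28 without, where 19 of 22 rose and 1 fell; of 21 tested, 4 were higher and 8 lower in the combination.

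Cell cycle genes fell less with PLX4720 than without it. Alone, 17 of 21 origin licensing genes fell (median -2.36), and 19 were higher in the combination. Replication fork genes fell in 25 of 27 cases alone (median -1.89), and 24 of 26 tested were higher in the combination. All 20 mitotic kinases and cyclins fell alone (median -3.55), and 16 of 17 tested were higher in the combination, where 19 still fell. The helicase subunit MCM5 had a log2 fold change of -0.87 ± 0.178 with PLX4720 and of -3.97 ± 0.131 without it in the authors' deposited table, a difference of 3.11 ± 0.221 (adjusted p = 1.9e-42). These are fold changes over different baselines, and levels under PLX4720 were not analysed here.

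**Figure D2:**
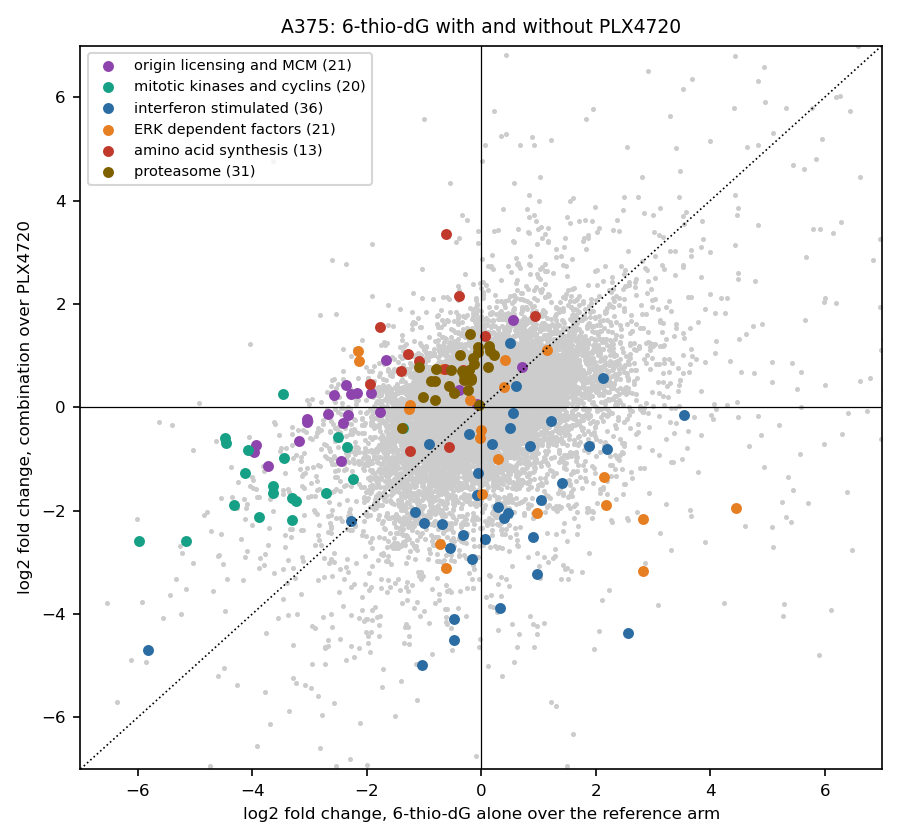
Log2 fold change of each gene for the combination over PLX4720 (vertical axis) against 6-thio-dG alone over its reference (horizontal axis), both as deposited. Grey points are all genes, coloured points are members of 6 lists with the number measured in brackets, the dotted line marks equal values, and 67 genes beyond 7 on either log2 axis are not shown; proteasome, amino acid synthesis and licensing genes lie mostly above the line and interferon genes mostly below it.

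Most interferon effectors and most laminins and matrix glycoproteins gave lower values with PLX4720. Of 36 interferon stimulated effectors 13 rose and 7 fell alone (median 0.31), and 29 were lower in the combination with none higher. IFIT1 stood at 0.97 ± 0.451 alone in the authors' deposited table (difference -4.20 ± 0.483, adjusted p = 7.5e-17), and IRF9 at 1.60 ± 0.499 (difference -3.18 ± 0.587, adjusted p = 3.8e-07). The immediate early factors EGR1, FOS and JUN, picked after their values were seen, had opposite calls. EGR1 rose by 2.82 ± 0.177 alone and fell in the combination, a difference of -5.97 ± 0.239 (adjusted p = 7.8e-134) computed from the authors' deposited table. FOS stood at -2.16 ± 0.555 with PLX4720 and 2.83 ± 0.195 without it in the authors' deposited table, a difference of -5.00 ± 0.588 (adjusted p = 4.3e-16). JUN had -1.34 ± 0.138 with and 2.14 ± 0.115 without PLX4720, a difference of -3.48 ± 0.179 (adjusted p = 2.1e-80) from the authors' deposited table. Across the ERK-dependent list 12 of 21 genes were lower in the combination and 5 higher. Of 17 laminins and matrix glycoproteins 11 fell and 3 rose alone (median -1.20), and of 15 tested 11 were lower in the combination and 1 higher.

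Most measured collagens and integrins also fell without PLX4720. Alone, 7 of 10 collagens fell and 1 rose (median -3.01), and of 9 tested 3 were lower in the combination and 1 higher. Of 11 integrins 7 fell and 2 rose alone (median -0.99), with 5 lower in the combination and 3 higher. A pair of genes with opposite calls was picked after their values were seen. The collagen-binding integrin ITGA2 had a difference of -4.94 ± 0.245 (adjusted p = 2.9e-87), from 1.76 ± 0.203 alone in the authors' deposited table. SNAI2, a repressor of epithelial genes, had 3.08 ± 0.621 alone in the authors' deposited table, a difference of -6.91 ± 0.768 (adjusted p = 6.2e-18). Lysosome genes rose in 16 of 31 cases alone, and 18 were lower in the combination; autophagy genes rose in 14 of 19 cases alone, and 12 were lower. The largest differences below 0 over all genes, computed from the authors' deposited table, were RASGRP1 (-11.03 ± 1.77), CDRT4 (-10.06 ± 2.62) and ALDH1A1 (-9.86 ± 2.66). The largest above 0, computed in the same way, included ENSG00000257921 (13.71 ± 3.99), ANKRD2 (10.47 ± 1.62) and PLD5 (6.04 ± 1.96). CDRT4 and ENSG00000257921 were not called in the combination itself, where they stood at 1.21 and 1.88, against 11.27 and -11.84 alone.

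**Figure D3:**
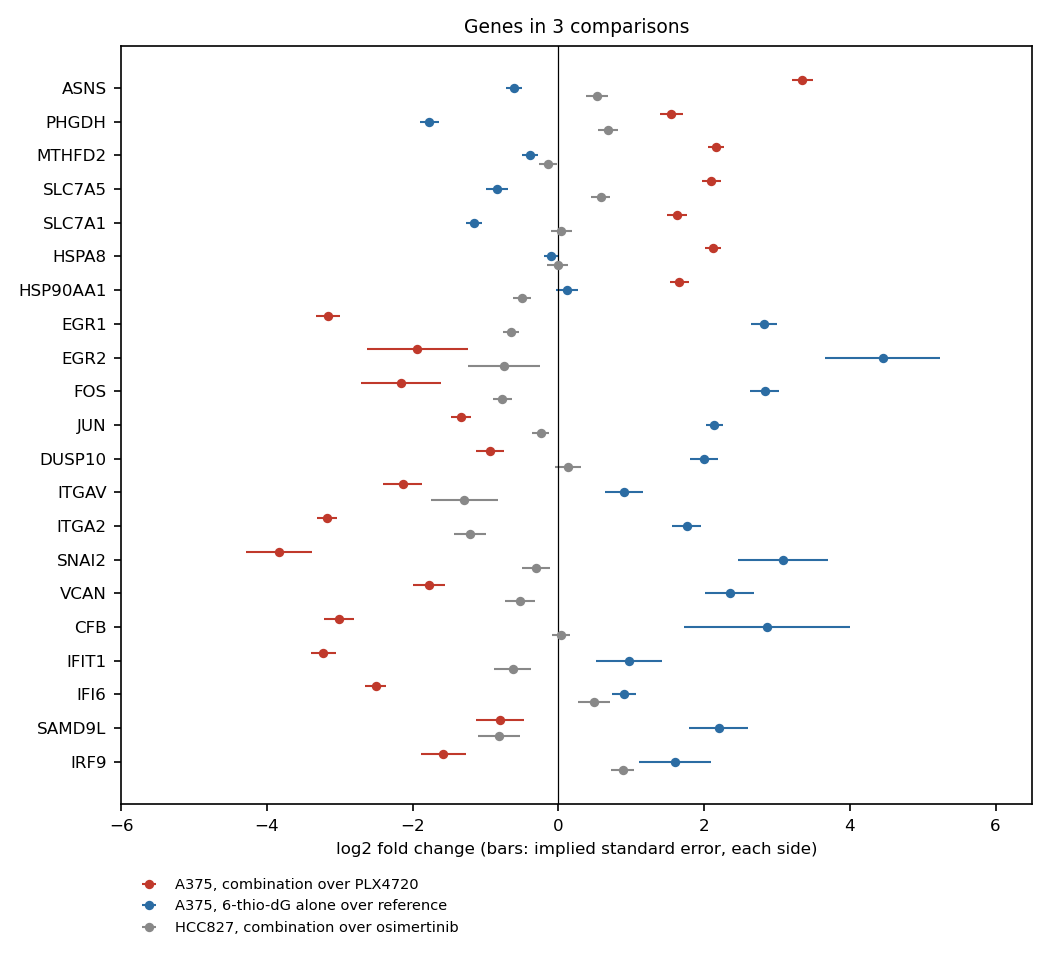
Log2 fold changes of selected genes in 3 comparisons of the authors' deposited table, with bars of 1 implied standard error on each side; the genes were picked after their values were seen. Red points are the A375 combination over PLX4720, blue points A375 6-thio-dG alone and grey points the HCC827 combination over osimertinib. Genes with red and blue points on opposite sides of 0 include EGR1, FOS, JUN, SNAI2, PHGDH, ASNS, ITGA2, IFIT1 and IRF9.

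The same addition of 6-thio-dG to a kinase inhibitor in HCC827 was called for fewer genes, and many differences between the lines passed the test. Of all genes 35.2% were called there in the authors' deposited table, 17.3% as rises and 17.9% as falls. The difference between the A375 and the HCC827 combinations, tested in the same way over 11812 genes, was called for 6673 (56.5%), of which 3419 were higher in A375 (28.9%) and 3254 lower (27.5%). Line and partner drug differ together between these comparisons and cannot be told apart. All 13 mitochondrially encoded transcripts rose in HCC827 (median 0.59) and had lower values in A375. Of 20 MHC class I genes 18 were lower in A375 and none higher, of 36 interferon stimulated effectors 25 were lower and 3 higher, and of 10 collagens 9 were lower and none higher. Of 31 proteasome subunits 19 were higher in A375 and 2 lower, and of 15 p53 apoptosis targets 11 were higher and none lower. B2M differed by -0.97 ± 0.143 (adjusted p = 9.9e-11), ASNS by 2.82 ± 0.205 (adjusted p = 6e-41) and CDKN1A by 3.11 ± 0.334 (adjusted p = 4e-19), as computed from the authors' deposited table. SUCLG2 was called as a fall in both lines, at -0.65 ± 0.161 in HCC827 and at the value given above in A375, a difference of -0.31 ± 0.221 (adjusted p = 0.22) from the authors' deposited table that was not called.

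The deposited fold changes followed properties of the transcript. Over 11801 genes that matched GENCODE release 29, Spearman's rho of the log2 fold change was -0.26 with GC content, -0.14 with exonic length and -0.08 with gene span. These are correlations across genes of the same libraries, which are not independent replicates, and they are given as a description. The median log2 fold change was 0.41 in the tenth of genes with the lowest GC content and -0.48 in the tenth with the highest, and the share that fell went from 11.4% to 46.9%. The part of this trend in the list results was not tested beyond removing it. With the 3 trends removed together, the median was -1.94 for interferon stimulated effectors (-1.98 before) and -2.68 for collagens (-3.47 before). Several smaller medians shrank by more than 1.5 times.

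Among lists with a positive median, it went from 0.69 to 0.42 for the proteasome, from 0.61 to 0.31 for mitochondrial chaperones, from 0.51 to 0.27 for translation factors, from 0.51 to 0.14 for hypoxia genes and from 0.46 to 0.30 for mitochondrial tRNA synthetases. It went from 0.39 to 0.16 for metallothionein and zinc genes and from 0.39 to -0.06 for checkpoint and NKG2D ligands. It went from 0.25 to 0.13 for ribosomal proteins, from 0.22 to 0.14 for receptor ligands and from 0.20 to 0.07 for the ligase and TCA cycle list; pyruvate dehydrogenase, purine and pyrimidine synthesis and complex I are given above. Among lists with a negative median, it went from -0.65 to -0.34 for receptor tyrosine kinases, from -0.42 to 0.01 for chromatin modifiers, from -0.38 to -0.19 for ERK feedback genes, from -0.35 to -0.01 for Wnt and Notch genes, from -0.34 to -0.16 for the core RAS and PI3K genes and from -0.27 to -0.03 for drug tolerance genes. Counts that moved by over 1.5 times and by at least 2 genes, beyond those above, were as follows. Rises went from 9 to 5 for endoplasmic reticulum chaperones, from 6 to 3 for lamina and HMG genes, from 4 to 2 for the E2F and RB family, from 5 to 8 for actin genes, from 2 to 5 for receptor tyrosine kinases and from 2 to 4 for drug tolerance genes. Falls went from 16 to 10 for chromatin modifiers, from 5 to 3 for translation factors, from 3 to 7 for ribosomal proteins and from 3 to 5 for autophagy genes. After median centring, falls went from 3 to 5 for autophagy genes, from 3 to 5 for tubulins and from 2 to 4 for telomere-binding genes.

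**Figure D4:**
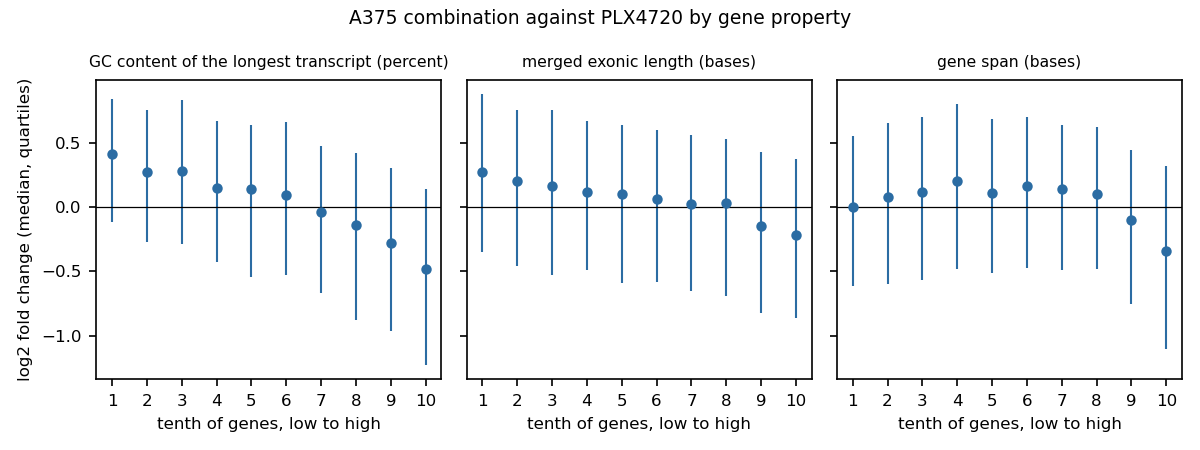
Median log2 fold change of the A375 combination over PLX4720 in 10 equal groups of genes ordered by GC content, exonic length and gene span (horizontal axes, low to high), with lines from the lower to the upper quartile. Medians go from 0.41 to -0.48 across GC content and lie at -0.34 in the tenth of genes with the longest span.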

How the data were processed

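Messenger RNA was selected with poly-T beads from Trizol extracts and made into libraries with the NEB Next Ultra kit, per the labels' protocols. The submitters' processing notes name FastQC, Trimmomatic, STAR and hg38. Other steps, thus not given in the sources used here, include versions, the counter, the annotation, the test, any shrinkage and any gene filter. The authors deposited log2 fold changes of the first arm over the second and p-values, raw and adjusted, for 4 comparisons of 11828 genes, per the file headers. Depth per library is unknown.

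Standard errors were implied as the size of the log2 fold change over the two-sided normal z of the p-value. Differences used a two-sided z test with Benjamini-Hochberg adjustment, which assumes that the comparisons share no libraries. The step was tested on simulated fold changes with normal noise at the implied standard errors. That simulation cannot show whether these errors hold for the libraries used. Members of 75 lists were counted without a list test. The members and lists were chosen with earlier results of these data known. Named genes are SUCLG2, SUCLG1 and SUCLA2, the 12 largest changes each way, the 6 largest differences each way, and, for each list, the 8 members of smallest p at most, plus members needed to state a count; others, and the genes shown to reverse, were picked after their values were seen. Gene properties came from GENCODE release 29 (11801 genes matched, 99.8%), and lowess trends used a fraction of 0.3. Promoter windows came from RefSeq. Python 3.11.15, pandas 2.3.3, numpy 2.4.6, scipy 1.17.1, statsmodels 0.14.6 and matplotlib 3.10.9 were used. Alternatives were a stricter adjusted p of 0.01, a 2-fold minimum, recomputed adjustment, median centring, trends removed and a t test reading of the p-values. The 20 time course libraries were not analysed here, and some genes that the naming rule picks are not reported here.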

Additional observations from a re-analysis of the deposited data

Results flagged for a closer look

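Differences between comparisons met a rule set for a closer look, namely that the difference itself passed its test; outlying libraries could not be looked for without values per library. The difference between the A375 combination and A375 6-thio-dG alone was called for 6205 genes, and that between the A375 and HCC827 combinations for 6673. All values that follow are differences of log2 fold changes computed from the authors' deposited table, with implied standard errors.

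The 6 lowest differences from 6-thio-dG alone were RASGRP1 (-11.03 ± 1.77), CDRT4 (-10.06 ± 2.62), ALDH1A1 (-9.86 ± 2.66), ENSG00000285791 (-9.82 ± 3.57), TIMP4 (-9.23 ± 3.02) and ENSG00000266086 (-8.56 ± 2.47). The highest included ENSG00000257921 (13.71 ± 3.99), ANKRD2 (10.47 ± 1.62), PLD5 (6.04 ± 1.96), MFNG (5.92 ± 1.97) and DOK7 (5.89 ± 2.29). CDRT4 and ENSG00000257921 were not called in the combination itself. Among genes described in the report, ASNS differed by 3.96, PHGDH by 3.33 and MCM5 by 3.11. On the lower side SNAI2 differed by -6.91, EGR1 by -5.97, FOS by -5.00, ITGA2 by -4.94, IFIT1 by -4.20, JUN by -3.48 and IRF9 by -3.18.

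The 6 lowest differences from the HCC827 combination were ENSG00000273259 (-12.39 ± 2.46), PADI2 (-10.39 ± 1.54), FAM20A (-10.00 ± 1.56), NRTN (-9.30 ± 1.73), PAOX (-8.73 ± 1.87) and EPSTI1 (-8.53 ± 1.66). The 6 highest were ENSG00000285779 (25.61 ± 6.21), CDRT4 (12.61 ± 1.95), CYP4F3 (11.80 ± 1.6), ENSG00000188223 (9.57 ± 3.63), ANKRD2 (9.37 ± 1.64) and PADI1 (9.25 ± 1.77). ENSG00000285779 and CDRT4 were not called in A375, and the HCC827 side of ENSG00000285779 is listed at -23.67 ± 4.79. CDKN1A differed by 3.11, ASNS by 2.82 and B2M by -0.97.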

How the results depend on the processing

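No paired analysis was possible because the table holds no value per library; the replicate block and leaving out each library were not run for the same reason. Requiring at least 2-fold left 3202 called genes in place of 7153, 1400 rises in place of 3685 and 1802 falls in place of 3468. Under an adjusted p of 0.01, recomputed adjustment, centring or removed trends the number called ran from 6164 to 7253, and the share of calls that rose from 48.1% to 51.6%. The counts of differences from 6-thio-dG alone ran from 5873 to 8917 and those from HCC827 from 5191 to 7815, the highest of each under the t test reading, all within 1.5 times the counts reported, 6205 and 6673. The t test reading implies smaller standard errors from the same p-values. Its higher counts therefore cannot show how the calls hold with few libraries. Of 262 genes named in the text, SUCLG1 changed sign, to -0.02 with the GC, length and span trends removed from the authors' deposited values (adjusted p = 0.92). In the same setting HPRT1, IFNGR1, IL6, PMS1 and TBK1 lost their call and 252 genes kept both direction and call. With only the GC trend removed FANCM, GPX4, MET, PMS1 and SUCLG1 lost theirs. At an adjusted p of 0.01 FANCM, IL6, ISG20, MET and PMS1 did, and with centring MET and PMS1 did. With the 3 trends removed, list medians changed sign from 0.39 to -0.06 for checkpoint and NKG2D ligands and from -0.42 to 0.01 for chromatin modifiers. Smaller ones did so from 0.11 to -0.03 for endoplasmic reticulum chaperones, from 0.11 to -0.13 for replication fork genes, from -0.04 to 0.05 for YAP and TEAD genes, from -0.02 to 0.02 for lamina and HMG genes and from 0.04 to -0.01 for splicing factors, which stood at -0.02 after centring. The cause was not tested. Depth is unknown, so what it limits cannot be stated.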
